A study of Ovis aries with 8 samples.

Results

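Tanycytes and ciliated ependymal cells line the floor and walls of the third ventricle, and 35 genes of these cells were followed in the mediobasal hypothalamus of food-restricted and well-fed ewes. The genes were taken by symbol: 14 tanycyte genes (RAX to RARRES2) and 21 genes of the motile cilia of ependymal cells (FOXJ1 to HYDIN), of 33609 genes listed. Of the 35, 33 were listed under their own symbol. LHX2 and COL25A1 were found by gene ID (114113882 and 101120576) under LOC names, and PIFO is called CIMAP3 in the RefSeq table. Adult Ile-de-France ewes were fed ad libitum (well fed) or food-restricted, 60 in each group, of which 30 were studied in each of consecutive years. How severe the restriction was, and how long it lasted, is not stated in the labels. RNA of 15 ewes was mixed at random in each of 4 pools per group, so n counts pools, an animal cannot be seen by itself, and the year of a pool is not given. Whether the pools of a group share ewes is not stated.

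Tanycytes are elongated glial cells whose processes reach from the ventricle to the median eminence and the arcuate nucleus. They carry hormones and nutrients between blood, cerebrospinal fluid and hypothalamus, and they control local thyroid hormone in seasonal mammals such as sheep. Ependymal cells bear tufts of motile cilia that move cerebrospinal fluid, and each cilium is built on microtubule doublets with dynein arms, radial spokes and a central apparatus. FOXJ1 is the transcription factor that switches on the genes of motile cilia.

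Total counts per pool ran from 36192025 to 48125991. Markers of the mediobasal hypothalamus were present in every pool, with a summed level of 530 to 777 CPM (read counts relative to library size, with TMM factors) in the food-restricted and 382 to 819 CPM in the well-fed pools over 8 of 8 genes. The first principal component of log2 CPM held 34.7% of the variance and set food-restricted pools 1 and 2 and well-fed pools 3 and 4 on one side of 0, and the other 4 pools on the other. Food-restricted pool 4 lay nearest to 0, with a score of -9.23, and the next nearest was well-fed pool 4 at 29.4. The sides were the same when the members were left out of the component. What the sides are is not given in the labels. Levels are not compared between genes here, because transcript lengths were not used.

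No tanycyte or motile cilium gene passed the test for a change with food restriction. In the edgeR quasi-likelihood test over all 18193 tested genes, 0 of 12 tested tanycyte genes and 0 of 21 tested cilium genes passed an adjusted p of 0.05, and AGRP was the 1 gene called, or 0.0055% of those tested. The adjusted p was 1 for each of the 33 tested members. At an unadjusted p under 0.05 the members counted 0, against 1.7% of all tested genes, and DESeq2 and limma voom also called 0 members (0.022% and 0.0055% of all genes). Blocking edgeR on these sides gave 6 called genes (0.033%), of which 0 were members. The sides were drawn from these same counts, so results with this block may be too favourable. A smaller SE with it is not read as a gain in precision. In 0 of the 33 did all pools of 1 group lie above all pools of the other, against 1.6% of all tested genes. RNA of whole tissue was measured, so fewer cells of a type and less RNA per cell cannot be told apart. Whether the pools came from separate ewes is not stated in the labels, and p-values measure only the spread between these mixes.

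The fold changes were small in both lists. The median log2 fold change, food-restricted minus well fed, was 0.08 over the tanycyte genes and 0.05 over the cilium genes, beside 0.01 over all tested genes. It was above 0 in 11 of 12 tanycyte genes and 16 of 21 cilium genes, against 52.9% of all genes. Members share the 8 pools and are not separate measurements: without well-fed pool 1 the tanycyte median was 0.01, and without well-fed pool 3 it was 0.20. The 95% intervals show what size of change these pools can bear. In 21 of 33 members the whole interval lay within a 1.5-fold change either way, as it did in 54.4% of all tested genes. In all 21 cilium genes and in 9 of 12 tanycyte genes it lay within a 2-fold change, against 75.1% of all tested genes. The 3 members with wider intervals were RAX, COL25A1 and SOX2.

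**Figure D1:**
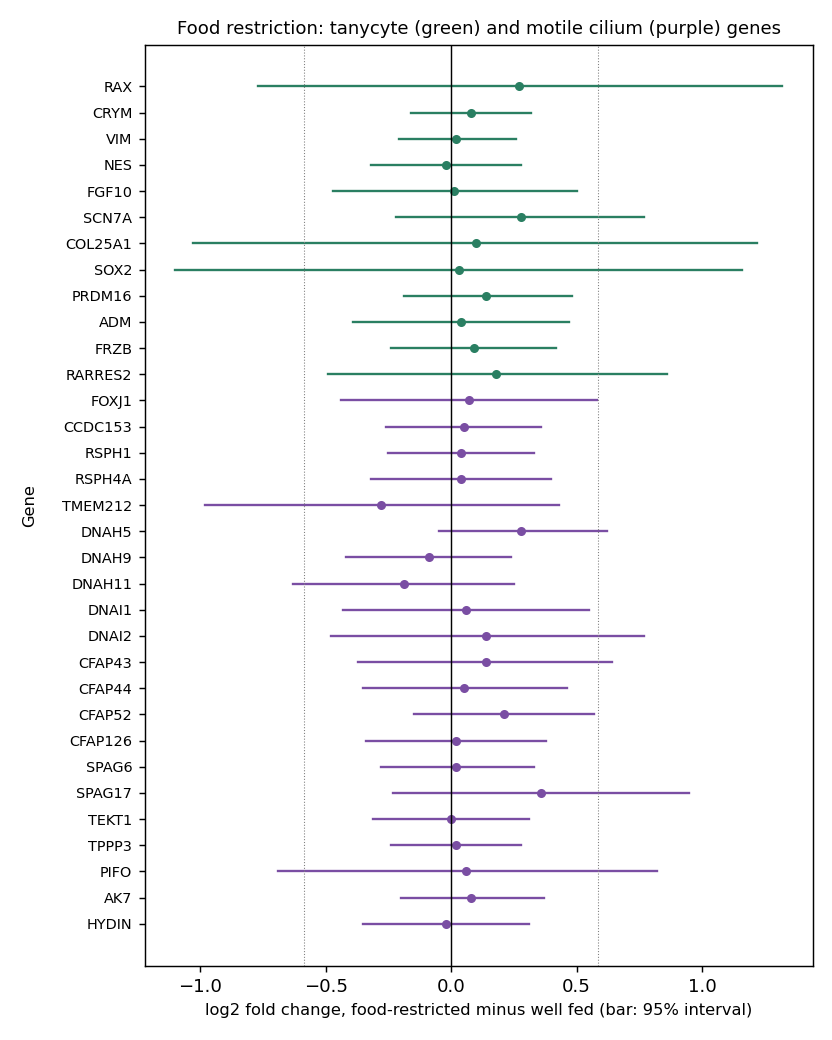
Log2 fold change of each tested member (points) with its 95% interval (bars), food-restricted minus well fed, 4 pools each. Dotted lines mark a 1.5-fold change, and every interval crosses 0.

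Among the transcription factors of the tanycyte list, RAX (101117038), a homeobox factor that marks tanycytes, had few counts. It was at 0.796, 1.44, 0.700 and 1.38 CPM in food-restricted pools 1 to 4 and at 0.571, 0.650, 0.751 and 1.61 CPM in well-fed pools 1 to 4. The groups overlapped over most of their range, and the highest value was in a well-fed pool. The log2 fold change was 0.27 (SE 0.47), with a 95% interval from -0.77 to 1.32, and RAX had between 25 and 60 counts in a pool. For RAX this fold change was 0.71 without well-fed pool 4 and 0.11 without well-fed pool 1. PRDM16, a zinc finger factor of ventricular glia and stem cells, was at 10.8 ± 1.14 against 9.83 ± 1.12 CPM (SD, n = 4 each). Its log2 fold change was 0.14 (SE 0.15).

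SOX2 (101110563), a factor of neural stem cells and glia, varied more between pools than any other tested member. Its level was 40.8, 72.0, 14.8 and 23.4 CPM in food-restricted pools 1 to 4 and 21.6, 16.0, 64.1 and 46.0 CPM in well-fed pools 1 to 4. On the first principal component, the 4 pools with scores above 0 all lay above the other 4, by 2.91-fold in the mean of log2 CPM. Of all tested genes, 2.46% differed as much between these sides. Food-restricted and well-fed pools had nearly the same mean (37.8 ± 25.3 and 36.9 ± 22.3 CPM, SD, n = 4 each), and within each side the groups differed by 0.00 on the log2 scale. With the side as a block the log2 fold change stayed at 0.03 and its SE fell from 0.51 to 0.19 (edgeR adjusted p = 0.997). This fall follows from SOX2 parting by a side that was drawn from these data.

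RARRES2 (101122516), which encodes the secreted protein chemerin, followed the same sides. It was at 94.6, 89.2, 45.2 and 73.8 CPM in food-restricted pools 1 to 4 and at 37.0, 50.9, 85.8 and 93.0 CPM in well-fed pools 1 to 4. The pools above 0 were 1.81-fold higher, a difference that 9.97% of tested genes reached. Between the feeding groups the log2 fold change was 0.18 (SE 0.30), and with the side as a block it was 0.24 (SE 0.15). Within the sides it was 0.04 above 0 and 0.41 below 0, where food-restricted pool 4 and well-fed pool 1 lay apart.

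ADM, the vasodilator peptide adrenomedullin, had the pattern in a weaker form. It was at 43.9, 50.7, 32.7 and 37.9 CPM in food-restricted pools and at 27.6, 40.7, 50.7 and 41.9 CPM in well-fed pools. All 4 pools above 0 again lay above the others, by 1.36-fold, a difference that 25.4% of tested genes reached. Its log2 fold change with restriction was 0.04 (SE 0.19).

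The other secreted proteins showed neither pattern. FRZB, a secreted inhibitor of Wnt signals, was at 59.2 ± 10.6 against 55.8 ± 7.13 CPM (SD, n = 4 each), with food-restricted pool 3 highest at 74.0 CPM. FGF10, a growth factor of tanycytes that can divide, was at 6.77 ± 1.81 against 6.71 ± 0.517 CPM, a log2 fold change of 0.01 (SE 0.22). Food-restricted pool 1 was the lowest pool for FGF10 at 4.17 CPM, and the other 7 pools lay between 6.03 and 8.12 CPM.

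Of the filament proteins, VIM (443105), the vimentin of tanycyte processes, was at 942, 1020, 853 and 884 CPM in food-restricted pools 1 to 4 and at 755, 976, 911 and 990 CPM in well-fed pools 1 to 4. The well-fed pools held the lowest value and spanned most of the range of the food-restricted ones. The log2 fold change was 0.02 (SE 0.11), with a 95% interval from -0.21 to 0.26. NES, the nestin of progenitor cells and tanycytes, was at 70.6 ± 4.25 against 71.5 ± 13.1 CPM (log2 fold change -0.02, SE 0.14), and well-fed pool 1, the lowest for VIM, was the highest for NES at 89.3 CPM.

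CRYM (101102280), a cytosolic protein that binds thyroid hormone, was at 354, 308, 302 and 333 CPM in food-restricted pools and at 309, 352, 263 and 306 CPM in well-fed pools. The groups overlapped almost fully. Its log2 fold change was 0.08 (SE 0.11), with a 95% interval from -0.16 to 0.32. SCN7A, a sodium channel involved in sodium sensing, had the largest fold change of the 12 tested tanycyte genes. It was at 7.91, 4.26, 6.98 and 6.59 CPM in food-restricted pools and at 6.02, 6.06, 4.48 and 4.67 CPM in well-fed pools. Food-restricted pool 2 was the lowest of the 8, and the other 3 food-restricted pools were the highest. The log2 fold change was 0.28 (SE 0.22), with a 95% interval from -0.22 to 0.77, and it was 0.17 without food-restricted pool 1 and 0.45 without food-restricted pool 2. COL25A1, a membrane collagen, was at 0.826 ± 0.313 against 0.771 ± 0.359 CPM, on 13 to 53 counts per pool.

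GPR50 and LHX2 did not pass the filter on low counts. GPR50, an orphan receptor related to melatonin receptors, had 15, 4, 0 and 1 counts in food-restricted pools 1 to 4 and 2, 0, 0 and 0 in well-fed pools 1 to 4. Most of its reads were in a single pool. In the edgeR fit with no filter its log2 fold change was 3.07 (SE 1.77, adjusted p = 0.999), a value that depends on the prior count. LHX2, a LIM homeobox factor of tanycyte identity, had 5, 0, 0 and 0 counts and 1, 0, 7 and 0 counts. A count of 0 allows up to 3 counts, or between 0.0623 and 0.0829 CPM by library, and this limit covers counting error only. The LHX2 row was found by gene ID, and its low counts do not show that the gene is silent, since the annotation used for counting is not given in the sources used here.

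**Figure D2:**
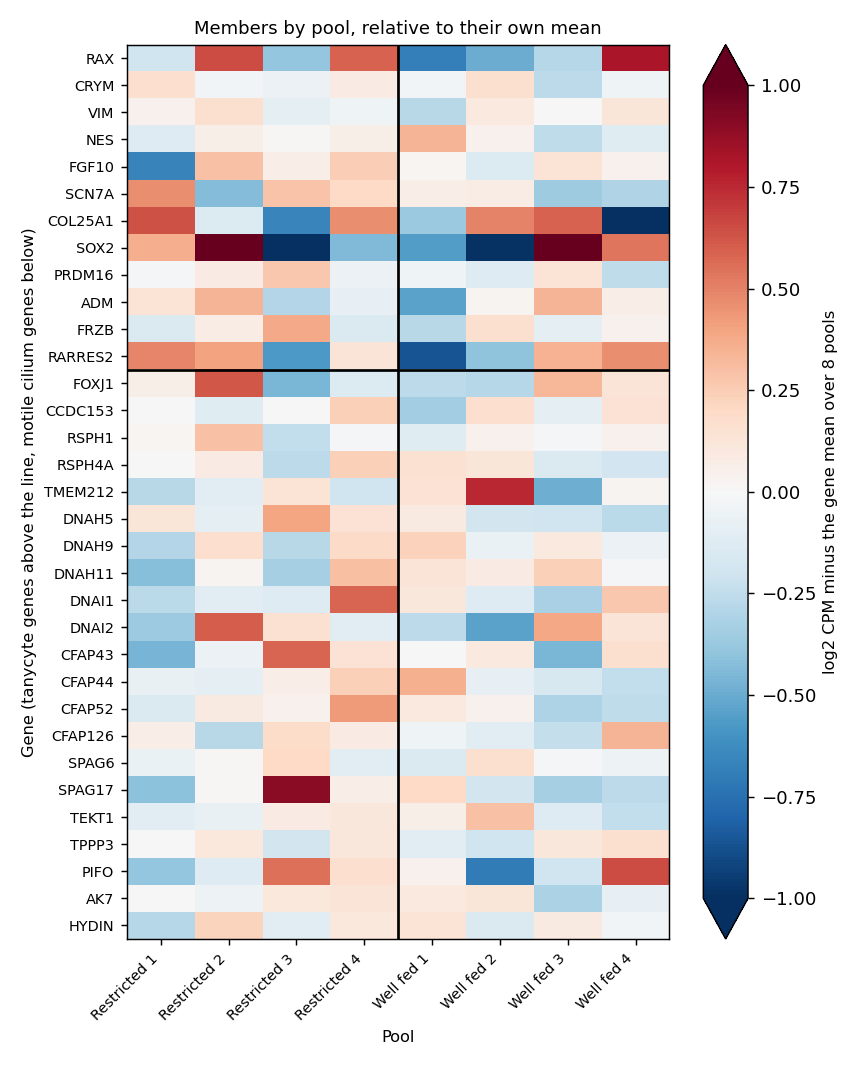
Log2 CPM of each tested member in each pool (columns), minus the mean of that gene over the 8 pools. Red is higher and blue lower. SOX2 and RARRES2 are red in restricted pools 1 and 2 and well-fed pools 3 and 4, and no gene separates the 4 left from the 4 right columns.

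FOXJ1 (101117859), the master regulator of motile cilia, was at 34.0, 50.3, 23.8 and 29.7 CPM in food-restricted pools 1 to 4 and at 27.3, 26.9, 41.2 and 35.8 CPM in well-fed pools 1 to 4. The groups overlapped, while the 4 pools above 0 all lay higher than the others, by 1.48-fold. Of all tested genes, 18.2% differed as much between the sides. The log2 fold change with restriction was 0.07 (SE 0.23) without a block and 0.06 (SE 0.13) with the side as a block. Of the other 20 cilium genes, 0 had all 4 of these pools above the rest, and the largest difference in that direction was that of DNAI2, at 0.38 on the log2 scale. Of all 18193 tested genes, 2584 had these pools all above the rest, as did 7 of 62 other motile cilium genes. TEKT1, a tektin of the doublet microtubules, and AK7, an adenylate kinase of cilia, went the opposite way. Their differences between the sides were small, and 45.3% and 54.0% of tested genes differed as much.

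TEKT1 was at 27.9, 28.5, 31.7 and 32.5 CPM in food-restricted pools and at 31.2, 36.8, 27.5 and 25.3 CPM in well-fed pools, with the side above 0 lower. The pools below 0 were 1.21-fold higher, and the feeding groups had equal means of 30.2 CPM. AK7 was between 33.9 and 38.4 CPM in food-restricted pools and at 37.5, 38.2, 28.1 and 33.1 CPM in well-fed pools 1 to 4, and the pools below 0 were 1.17-fold higher. Altogether 6 of 33 members did not overlap between the sides, or 18.2%, a share near the 23.1% of all tested genes. By list these were 3 of 12 tanycyte genes, all higher above 0, and 3 of 21 cilium genes.

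**Figure D3:**
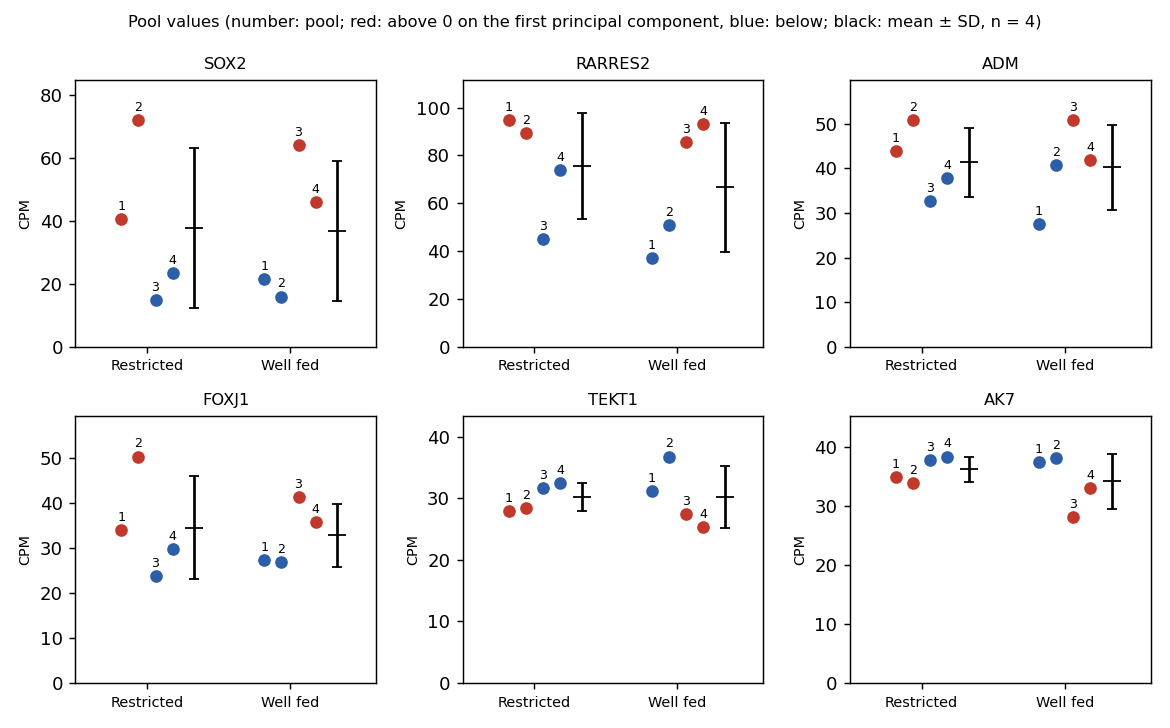
CPM of the 6 members whose pools did not overlap between the sides of the first principal component, by feeding group. Numbers are pools, red and blue points are pools above and below 0, and black marks are the mean ± SD of 4 pools. In each panel the red points lie all above or all below the blue ones, and both groups hold 2 of each.

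Genes of the outer dynein arm, the motor that drives the beat, gave fold changes in both directions (3 above and 2 below 0, median 0.06). DNAH5 (101104179), a heavy chain, had the smallest unadjusted p of the 33 tested members. It was at 17.4, 15.0, 21.1 and 17.7 CPM in food-restricted pools 1 to 4, at 17.1 CPM in well-fed pool 1 and from 13.3 to 14.1 CPM in the other 3 well-fed pools. Well-fed pool 1 lay above food-restricted pool 2, and without either of them the groups did not overlap. The log2 fold change was 0.28 (SE 0.15), with a 95% interval from -0.05 to 0.62, and it was 0.24 above 0 and 0.32 below 0 on the first principal component. It did not pass (edgeR adjusted p = 1). Exact permutation of the feeding labels (two-sided, log2 CPM) gave an unadjusted p of 0.0571, where 4 pools against 4 can reach 0.0286. DNAH5 was singled out as the smallest of 33, and neither unadjusted p allows for that.

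The partner heavy chains lay on the other side of 0. DNAH9 was at 36.6 ± 6.71 against 38.9 ± 3.89 CPM (log2 fold change -0.09, SE 0.15). DNAH11 was at 6.03 ± 1.42 against 6.88 ± 0.499 CPM (-0.19, SE 0.20). Of the intermediate chains, DNAI1 was at 7.66, 8.52, 8.42 and 13.8 CPM in food-restricted pools and at 9.97, 8.42, 7.36 and 11.1 CPM in well-fed pools. Food-restricted pool 4 stood above every other pool. DNAI2 was at 4.04 ± 1.20 against 3.65 ± 1.02 CPM.

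The radial spoke genes RSPH1 and RSPH4A, whose proteins link the doublets to the central apparatus, each had a log2 fold change of 0.04 (SE 0.13 and 0.16). RSPH1 was at 34.8 ± 5.30 against 33.9 ± 1.82 CPM, (SD, n = 4 each), and RSPH4A at 8.21 to 11.6 against 8.59 to 10.9 CPM. In the central apparatus, HYDIN and SPAG6 did not move beyond their error, at -0.02 (SE 0.15) and 0.02 (SE 0.14). SPAG17, of the same structure, had the largest fold change of the 33 tested members. It was at 6.70, 8.96, 16.6 and 9.30 CPM in food-restricted pools and at 10.2, 7.82, 7.07 and 7.41 CPM in well-fed pools. Its log2 fold change of 0.36 (SE 0.27) rested on food-restricted pool 3, and without that pool it was 0.04.

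CFAP43 and CFAP44, which tether inner dynein arms to the doublets, had fold changes within their error. CFAP43 was at 10.7 ± 3.21 against 9.71 ± 1.72 CPM, and CFAP44 at 7.57 ± 0.830 against 7.30 ± 1.44 CPM. CFAP52, a protein inside the doublet microtubule, was at 23.6 ± 4.04 against 20.4 ± 2.91 CPM (log2 fold change 0.21, SE 0.16), with food-restricted pool 4 highest at 29.2 CPM. CFAP126, which acts in cilium positioning, was at 20.4 ± 2.66 against 20.1 ± 3.70 CPM. TPPP3, a tubulin-binding protein, was at 184 ± 16.9 against 181 ± 22.2 CPM, with a 95% interval of its log2 fold change from -0.24 to 0.28.

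CCDC153, of the regulatory complex between doublets, was at 67.1 ± 7.17 against 64.7 ± 10.5 CPM. PIFO was at 2.48 ± 0.704 against 2.38 ± 0.944 CPM. TMEM212, a membrane protein of ciliated cells, had the lowest fold change of the cilium list. It was at 1.78 ± 0.232 CPM in food-restricted and 2.16 ± 0.780 CPM in well-fed pools (SD, n = 4 each), where pool 2 was the highest at 3.22 CPM and pool 3 the lowest of all at 1.36 CPM. The log2 fold change was -0.28 (SE 0.32), with a 95% interval from -0.98 to 0.43, and without well-fed pool 2 it was -0.02.

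Between pools, the 12 tested tanycyte members had a wider spread than the 21 cilium members. The SD of log2 CPM within a group had a median of 0.32 over the tanycyte genes and 0.22 over the cilium genes, beside 0.27 over all tested genes. The lists of further genes of these cells, described below, did not differ in this way. The median was 0.27 over 19 other tanycyte genes and 0.27 over 62 other motile cilium genes. The ratio of the highest to the lowest pool ran from 1.34 to 4.86 in tanycyte genes and from 1.26 to 2.56 in cilium genes. The mean centred log2 CPM of the tanycyte genes was highest in food-restricted pool 2 (0.22) and lowest in well-fed pool 1 (-0.26), where 5 of 12 genes had their lowest value, against 12.3% of all tested genes. That pool was also the lowest for 6 of 8 mediobasal hypothalamus markers, a list that holds AGRP (mean centred log2 CPM -0.63), and for 3 of 7 anterior pituitary markers (-0.72), and their part in the tanycyte value was not tested. The mean of the cilium genes was highest in food-restricted pool 4 (0.13), where 6 of 21 genes had their highest value, against 5.75% of all genes, and lowest in food-restricted pool 1 (-0.15). The highest and lowest pools of the cilium list were thus both food-restricted. The 62 other motile cilium genes did not share this order. Their mean was 0.04 in food-restricted pools 1 and 4, highest in food-restricted pool 2 (0.1) and lowest in food-restricted pool 3 (-0.11). The 19 other tanycyte genes had means of 0.01 in food-restricted pool 2 and -0.02 in well-fed pool 1. No test was made of these differences.

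**Figure D4:**
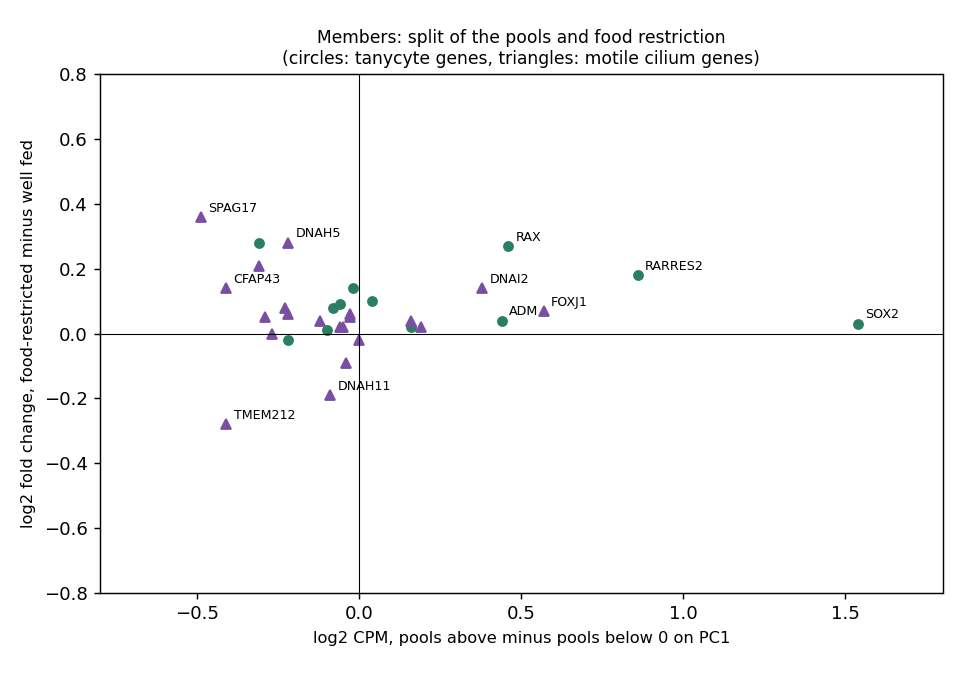
Each tested member by its difference between pools above and below 0 on the first principal component (horizontal axis, log2 CPM) and its log2 fold change with food restriction (vertical axis). SOX2 lies at 1.54 on the horizontal axis and 0.03 on the vertical one, and no tested member exceeds 0.36 on the vertical axis.

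Further genes of the same cells gave no call either. Of 19 tested other tanycyte genes, 0 passed in edgeR over all genes, 7 were higher and 12 lower, and the median was -0.03. At an unadjusted p under 0.05 in edgeR there was 1 (5.26%, against 1.7% of all tested genes). This was DIO2, which activates thyroid hormone, at 53.4 to 82.6 CPM in food-restricted and 76.2 to 111 CPM in well-fed pools (log2 fold change -0.59, SE 0.17). The next smallest p were those of SLC17A8, a vesicular glutamate transporter (-0.71, SE 0.34), and PPP1R1B, a phosphatase inhibitor (-0.24, SE 0.13). Of 62 tested other motile cilium genes, 0 passed and 0 had an unadjusted p under 0.05 in edgeR, 36 were higher and 26 lower, and the median was 0.03. SPEF2, of the central apparatus, was at -0.40 (SE 0.20), DNAH7, an inner arm heavy chain, at -0.29 (SE 0.16) and CCDC39, which sets the spacing of the arms, at 0.34 (SE 0.20). MCIDAS, a factor upstream of FOXJ1, was not tested, with at most 12 counts in a pool. Of 23 genes of intraflagellar transport and the primary cilium, 15 were higher and 8 lower (median 0.04), and 0 had an unadjusted p under 0.05.

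Several members are also expressed by neighbouring cells, so the markers of those cells are given beside them. The choroid plexus, whose epithelium is ciliated as well, had 11 of 12 markers tested, 6 higher and 5 lower. Their summed level was 94.5 to 132 CPM in food-restricted and 81.8 to 113 CPM in well-fed pools. TTR, the transthyretin of the choroid plexus, was at 54.5 ± 17.0 against 36.8 ± 16.2 CPM (log2 fold change 0.57, SE 0.31), and CLDN2 had 0 counts in 4 of 8 pools. Astrocytes, which share SOX2, had 10 of 10 markers tested, 6 higher and 4 lower, and a summed level of 11500 to 12900 against 11800 to 13000 CPM. Endothelial markers, beside ADM, had 10 of 10 tested, 6 higher and 4 lower, at 370 to 506 against 340 to 447 CPM. GJB6, a connexin, was the 1 astrocyte marker with an unadjusted p under 0.05, at 34.1 ± 4.61 against 28.1 ± 0.429 CPM. The median log2 fold change was 0.06 for neurons (7 higher, 2 lower), 0.10 for oligodendrocytes (5 higher, 1 lower), 0.02 for microglia (3 higher, 2 lower), -0.03 for pericytes, smooth muscle and meninges (4 higher, 6 lower) and -0.03 for the anterior pituitary and pars tuberalis (2 higher, 5 lower). No marker of these cells passed in edgeR, and GJB6 alone had an unadjusted p under 0.05. The part of these cells in the members' values was not tested.

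Between the sides of the first principal component, 4208 of 18193 tested genes (23.1%) did not overlap. Above 0, 2584 of them were all higher and 1624 all lower. The summed endothelial markers were at 422 to 506 CPM above 0 and 340 to 386 CPM below 0. Of these 10 genes, 3 were all higher and 1 all lower above 0. Astrocyte markers were at 11800 to 12900 against 11500 to 13000 CPM, with 1 all higher and 2 all lower. Choroid plexus markers were at 86.3 to 132 against 81.8 to 127 CPM, with 0 of 11 parted. The summed mediobasal hypothalamus markers parted fully, at 645 to 819 against 382 to 602 CPM, with 2 of 8 genes all higher above 0. Anterior pituitary markers were at 1240 to 1970 against 1080 to 1790 CPM, with 3 of 7 all higher, and oligodendrocyte markers at 4120 to 5240 against 3650 to 4330 CPM, with 2 of 6 all higher. Neuronal markers had a sum of 2070 to 2280 against 2220 to 2630 CPM, with 2 of 9 genes all higher above 0. The pericyte, smooth muscle and meningeal list had 2 of 10 all higher, and microglia had 1 of 5 all lower. Of 23 genes of intraflagellar transport and the primary cilium, 39.1% did not overlap, with 3 all higher and 6 all lower. AVP and OXT, hormones of magnocellular neurons whose axons end in the posterior pituitary beside tanycyte-like pituicytes, were both higher above 0, with a sum of 142 to 289 against 27.3 to 78.3 CPM. The part of these cells in the split of SOX2, RARRES2, ADM and FOXJ1 was not tested.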

How the data were processed

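The deposited table holds raw counts, with genes in rows and pools in columns, per the file headers. TruSeq stranded mRNA libraries were made, per the labels. Tools named in the submitters' processing notes were TopHat2 2.1.1, Bowtie2 2.3.5.1, featureCounts 2.0.0, SAMtools 1.9, bcl2fastq 2.20 and FastQC. No source used here gives the build, annotation, strand setting or handling of shared reads. Of the members, 12 overlap another gene in the RefSeq annotation of ARS-UI_Ramb_v3.0, and 5 of these a protein-coding one (RSPH1, DNAH11, CFAP43, CFAP44 and SPAG17). The rest (CRYM, SOX2, DNAH5, DNAI1, CFAP52, AK7 and HYDIN) overlap a noncoding gene or a pseudogene. Counts of all 12 are uncertain. Of the IDs, 83.6% were found in that table, which was used for names and neighbours only. Promoter motifs were planned and not analysed here.

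The analysis used edgeR 4.0.16 in R 4.3.3: filterByExpr (minimum count 10, total 15), TMM, quasi-likelihood F test without covariates, Benjamini-Hochberg over all tested genes, threshold 0.05, tested on simulated data. SE is the absolute log2 fold change over the square root of F, and 95% intervals use the moderated degrees of freedom. Log2 CPM has a prior count of 2. Alternatives were 3 scalings, 2 filters, 2 blocks, each pool left out, DESeq2 1.42.0 and limma 3.58.1 (voom). Within a group, any 2 pools differed beyond sampling noise (chi-square over its degrees of freedom, 23.9 to 160). Members and lists were chosen with earlier results of these data known. All members are named, with up to 3 genes of smallest p from each context or marker list described and a few fixed ones.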

Additional observations from a re-analysis of the deposited data

Results flagged for a closer look

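DNAI1, an intermediate chain of the outer dynein arm, was at 13.8 CPM in food-restricted pool 4, far from the other 3 food-restricted pools, which lay between 7.66 and 8.52 CPM. The gap was 0.858 of the range of the group, above the 95% critical value for 4 samples (Dixon). Such a gap was looked for in 66 groups of 4 pools (33 members in each feeding group) and found in 1, where chance gives about 1 in 20 groups. Without this pool the log2 fold change of DNAI1 was -0.16, against 0.06 with it.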

How the results depend on the processing

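None of the 33 tested members was called under any of the 17 alternatives, with adjusted p between 0.964 and 1 in edgeR, DESeq2 and limma voom. Over all genes 1 was called, against 0 with the replicate block, 6 with the principal component side as block and 4 in DESeq2, and 0 when any 1 pool was left out. Members whose groups did not overlap rose from 0 to at most 2 when 1 pool was left out: SCN7A and DNAH5 without food-restricted pool 2 (6.22% of all genes) and DNAH5 without well-fed pool 1 (3.13%). The median log2 fold change lay between 0.01 and 0.20 (tanycyte) and between 0.01 and 0.08 (cilium) with 1 pool left out. Pools with the same replicate number did not deviate together (correlations -0.42 to -0.207). Each such pair lay on opposite sides of the first principal component, so these correlations cannot show whether the numbers pair the pools. The replicate block called no member. The sign, never called, changed in 3 members under other alternatives. TEKT1 was at 0.01 with size factors of the DESeq2 kind, DESeq2, limma voom and both blocks. FGF10 was at -0.03 with the replicate block and -0.04 in limma voom, and SOX2 at -0.01 in each of these. With 1 pool left out, the sign changed in 22 members, and 11 members kept theirs throughout. Among these 11 the values ran from 0.11 to 0.71 for RAX, 0.17 to 0.45 for SCN7A, 0.04 to 0.53 for SPAG17, -0.43 to -0.02 for TMEM212, -0.33 to -0.09 for DNAH11, -0.16 to -0.01 for DNAH9, 0.19 to 0.38 for DNAH5, 0.10 to 0.30 for CFAP52, 0.07 to 0.23 for PRDM16, 0.02 to 0.14 for AK7 and 0.03 to 0.15 for CRYM. In the 22, the lowest and highest values were -0.10 and 0.18 for ADM, -0.04 and 0.12 for CCDC153, -0.04 and 0.15 for CFAP126, -0.07 and 0.29 for CFAP43, -0.02 and 0.20 for CFAP44, -0.13 and 0.35 for COL25A1, -0.16 and 0.16 for DNAI1, -0.05 and 0.32 for DNAI2, -0.07 and 0.19 for FGF10, -0.15 and 0.21 for FOXJ1, -0.04 and 0.16 for FRZB, -0.09 and 0.06 for HYDIN, -0.08 and 0.11 for NES, -0.13 and 0.35 for PIFO, -0.02 and 0.39 for RARRES2, -0.04 and 0.12 for RSPH1, -0.03 and 0.12 for RSPH4A, -0.47 and 0.45 for SOX2, -0.04 and 0.08 for SPAG6, -0.08 and 0.11 for TEKT1, -0.04 and 0.08 for TPPP3 and -0.05 and 0.07 for VIM. The cause of these changes was not tested. RAX, COL25A1, GPR50 and LHX2 had at most 60 counts in any pool.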
